A study of Homo sapiens with 30 samples.

Results

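Banhasasim-tang and Bojungikgi-tang are traditional Korean herbal formulas for digestive complaints. Both contain ginseng and licorice. Banhasasim-tang is built around Pinellia tuber, Scutellaria root and Coptis rhizome, and Bojungikgi-tang around Astragalus root. Their 70% ethanol extracts were compared directly, at 500 µg/mL for 24 h, in HT29, an established cell line from a human adenocarcinoma of the colon and rectum. All libraries labelled with either extract at that dose were taken, 2 for Banhasasim (replicates 2 and 3) and 3 for Bojungikgi (replicates 1, 2 and 3), which are 5 of the 30 libraries in the series. The other 25 were the same extracts at 100 and 20 µg/mL (2 and 3 libraries per dose), Sayeok extract (3 per dose), Yijung extract (1 per dose) and cells given solvent alone (vehicle, 0.1% DMSO per its label, 3 libraries). The vehicle takes no part in the contrast, and its levels are given as background. Each group is 1 cell line, and the labels do not say whether replicates came from separate cultures. The p-values therefore measure a spread between libraries that may be technical. It was estimated in a fit of all 30 libraries and not from the 5 compared alone, and the Yijung groups of 1 library add nothing to it.

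A cell meeting a plant extract responds along a few well-known routes. Flat aromatic compounds bind the aryl hydrocarbon receptor (AhR), a transcription factor that switches on CYP1A1 and other enzymes that oxidise them. Shortage of amino acids or stress in the endoplasmic reticulum or mitochondria raises translation of ATF4, a transcription factor that induces genes for making, importing and loading amino acids. Electrophiles release NRF2, which induces antioxidant and detoxifying enzymes. The mitochondrial genome is read as long transcripts from both strands and cut into 2 rRNAs, 13 mRNAs and tRNAs, and the abundance of each RNA depends on transcription and on its own stability.

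The 5 libraries held between 43679891 and 56696779 counts (all 30 ranged from 36273842 to 71625568), so a floor of 3 counts lay between 0.0529 and 0.0687 CPM and covers counting error only. CPM, the usual depth-scaled unit, is a gene's count after all libraries are brought to a common total. Levels below are CPM after trimmed-mean (TMM) scaling. Bojungikgi replicate 2 stood apart. Ribosomal protein genes took 3.775% of its counts, against 5.119% and 5.314% in the other Bojungikgi libraries and 5.43% and 5.255% in the Banhasasim libraries. Its chi-square per gene against the other Bojungikgi libraries was 33.08 and 39.58, against 5.07 between those libraries. The Banhasasim pair also differed widely (39.7). Between same-group pairs of these extracts at 100 and 20 µg/mL the chi-square per gene was 4.14 to 13.21, and the full fit shares its estimate of the spread among all groups. The summed level of 14 colon epithelial identity genes, among them EPCAM, CDH1 and KRT8, was between 10500 and 11100 CPM in all 5. Of 11 fibroblast and endothelial markers, 6 had at most 3 counts over the 5 libraries (COL1A2, COL3A1, DCN, PDGFRA, CDH5 and KDR), and the summed level of the 11 was between 3.96 and 4.24 CPM. Of 12 leukocyte and blood markers, 5 had at most 3 counts, including PTPRC, and their summed level of 1630 to 2020 CPM was nearly all LYZ, a lysozyme.

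With Banhasasim the cells carried more RNA of several AhR targets, of many ATF4 targets and of both mitochondrial rRNAs than with Bojungikgi, and less RNA of several mitochondrial mRNAs and of TXNIP, an arrestin that restrains glucose uptake. CYP1A1 was 33.7-fold higher, MT-RNR1 17.8-fold, CHAC1 6.69-fold and ASNS 3.64-fold, whereas MT-ND4 was 2.84-fold and TXNIP 2.52-fold lower. Of 18783 genes tested, 2290 (12.2%) differed at a Benjamini-Hochberg adjusted p under 0.05 in edgeR's quasi-likelihood test, and these are the genes called below. Of these, 1181 (6.29%) were higher and 1109 (5.90%) lower with Banhasasim. Most differences were small: 81.2% of the calls were under 1.5-fold, and 77 higher and 75 lower genes passed 2-fold. Of those past 2-fold, 24 higher and 10 lower genes reached 5 CPM in one of the groups, while 38 and 55 stayed under 1 CPM. The libraries of the extracts did not overlap for 99.3% of the calls and for 38.8% of all genes tested.

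**Figure D1:**
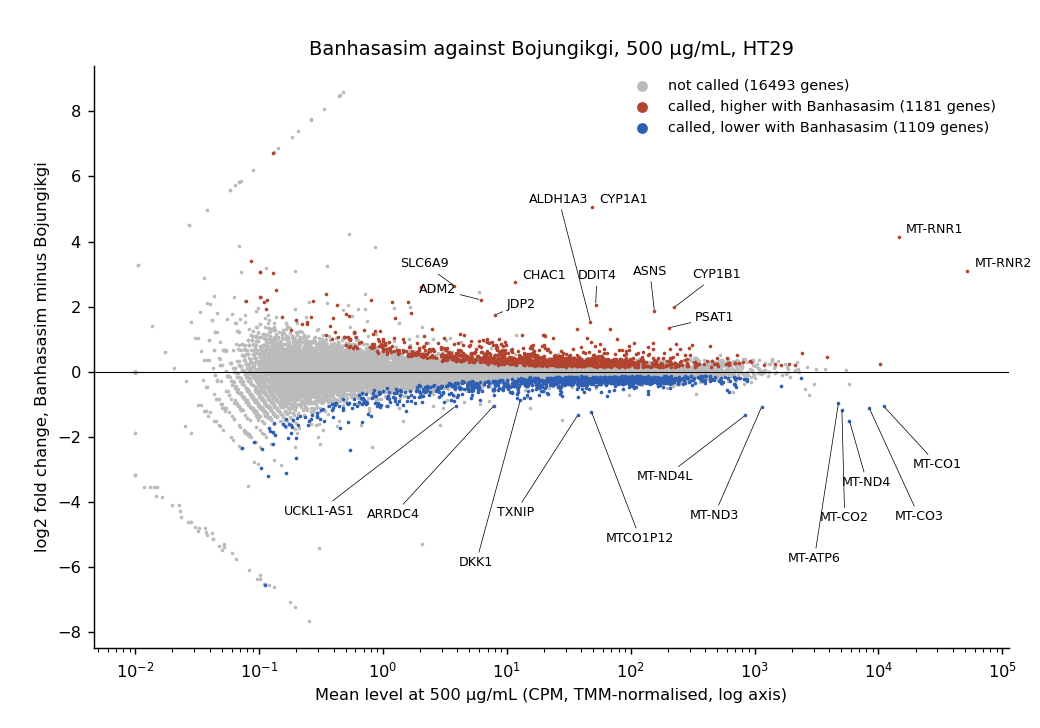
Each point is 1 of the 18783 genes, with its mean level at 500 µg/mL on the horizontal log axis and its log2 fold change (Banhasasim minus Bojungikgi) on the vertical axis. Called genes are coloured and the 12 highest and 12 lowest that met the naming rule are labelled, with CYP1A1 at 5.07, MT-RNR1 at 4.15 and MT-ND4 at -1.50.

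How many genes were called rested on the fit and on 2 libraries. The number was 540 without Banhasasim replicate 2, 1171 without Bojungikgi replicate 2 and 132 (108 higher, 24 lower) when the spread was estimated from the 5 libraries alone, 129 of them shared with the full fit. Among the 2290 genes, 108 (90 higher, 18 lower) were called in the same direction under all 13 alternatives tried. They include 17 of the 24 genes labelled in the plot of fold change against level. Mitochondrially encoded genes were counted as kept in the alternative that leaves them out, where they were not tested.

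The AhR group was led by its oxidases. CYP1A1, the cytochrome P450 best known as an AhR target, stood at 100 and 89.6 CPM in the Banhasasim libraries and at 2.54, 2.84 and 3.04 CPM in the Bojungikgi libraries, against a mean of 0.441 CPM in the vehicle. Its log2 fold change was 5.07 ± 0.13 (SE; adjusted p = 1.86e-19). CYP1B1, a related oxidase of steroids and aromatic hydrocarbons, stood at 350 and 371 CPM against 89.4, 93.6 and 90.5 CPM, a log2 fold change of 1.98 ± 0.05 (adjusted p = 2.04e-20). In both genes every Banhasasim library lay several-fold above every Bojungikgi library, and the Bojungikgi libraries lay above the vehicle means (0.441 and 48.9 CPM). ALDH1A3, which makes retinoic acid, averaged 70.3 ± 0.795 (SD, n = 2) against 24.5 ± 1.07 CPM (n = 3), a log2 fold change of 1.52 ± 0.06 (adjusted p = 6.40e-16). TIPARP, an ADP-ribosyltransferase that feeds back on the receptor, averaged 196 ± 11 against 106 ± 2.45 CPM (0.89 ± 0.06, adjusted p = 1.98e-11).

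Of the 11 measured members of the AhR list, 8 were higher and 1 lower, with a median log2 fold change of 0.51 against -0.001 for all genes tested. The lower one was AHR itself, the receptor (-0.27 ± 0.07, adjusted p = 0.0185). Its dimer partner ARNT (-0.03) and its repressor AHRR (0.12) did not pass the test. The other higher members were ALDH3A1, NQO1, UGT1A6 and NFE2L2, the gene of NRF2, with log2 fold changes between 0.18 and 0.90. UGT1A6 shares its last exons with other UGT1A genes, so its own share of the reads is uncertain. The count of higher members was 6 without Banhasasim replicate 2, 6 without Bojungikgi replicate 2 and 5 in the fit of the 5 libraries alone, and AHR was not called in any of these 3 settings.

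The core letters bound by AhR with its partner are GCGTG. They are shown here, in 30-base windows read on the strand that carries them, for the receptor's targets whose levels differed most and whose promoters were in RefSeq's table (GRCh38.p14). The windows were taken from the 250 bases before each annotated start, and capitals mark the motif.
CYP1A1 at chr15:74725568-74725597, minus strand, 52 bases from the start: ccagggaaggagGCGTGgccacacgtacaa
ALDH1A3 at chr15:100879776-100879805, plus strand, 38 bases from the start: ctcgggcgggagGCGTGgggcgctgcataa
ALDH1A3 at chr15:100879621-100879650, minus strand, 192 bases from the start: gcggctccacccGCGTGccgcggaccgtcc
TIPARP at chr3:156674435-156674464, minus strand, 137 bases from the start: ccccctgcgcgcGCGTGcgcgttcgttcga
TIPARP at chr3:156674369-156674398, minus strand, 203 bases from the start: tcccgcgaggggGCGTGtcctttctcgcgt
The 5 letters are common: on either strand, they were in 32.2% of all 35116 promoters of that length and in 41.8% of the promoters of the genes tested. Among the 78 promoters matched for 58 of the 77 genes more than 2-fold higher with Banhasasim the share was 38.5%. CYP1B1 was not matched in the table.

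Among the ATF4 targets, CHAC1, which breaks down glutathione, stood at 20.0 and 20.6 CPM with Banhasasim and at 3.21, 2.84 and 3.02 CPM with Bojungikgi. The log2 fold change was 2.74 ± 0.09 (adjusted p = 2.7e-17), and the Bojungikgi libraries lay close to the vehicle mean of 2.64 CPM. DDIT4, an inhibitor of mTORC1 signalling, averaged 84.1 ± 7.87 against 20.2 ± 1.05 CPM (2.06 ± 0.08, adjusted p = 6.40e-16). TRIB3, a pseudokinase that restrains ATF4, averaged 97.6 ± 5.99 against 39.2 ± 4.00 CPM (1.31 ± 0.07, adjusted p = 4.02e-13), and JDP2, a repressor of the AP-1 and ATF family, 12.5 ± 0.199 against 3.70 ± 0.319 CPM. All 14 measured regulators and effectors on this list were called, 13 higher and 1 lower, with a median of 0.95. ATF4 mRNA itself was among the higher (0.72 ± 0.08), as was DDIT3, the death-associated factor CHOP (0.93 ± 0.12), and ATF5 was the lower one (-0.33 ± 0.10, adjusted p = 0.0261). The higher count stayed at 13 without any single library and was 10 in the fit of the 5 libraries alone, in which ATF5 was not called.

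Enzymes that make amino acids and one-carbon units differed with them. ASNS, asparagine synthetase, stood at 249 and 240 CPM against 70.0, 62.9 and 68.5 CPM, with a vehicle mean of 63.5 CPM. Its log2 fold change was 1.86 ± 0.05 (adjusted p = 2.04e-20), and the Banhasasim libraries lay more than 3-fold above every Bojungikgi library. The serine pathway followed: PSAT1 averaged 294 ± 6.11 against 115 ± 7.62 CPM (1.35 ± 0.05), PHGDH, its first enzyme, 59.8 ± 3.18 against 29.2 ± 2.48 CPM (1.03 ± 0.07), and PSPH, its last, 75.0 against 46.4 CPM (0.69 ± 0.05). MTHFD2, which works in mitochondrial folate metabolism, was higher by 0.71 ± 0.05. Of 15 measured members, 12 were higher and 1 lower (ALDH18A1 of proline synthesis, -0.13), with a median of 0.52. In the fit of the 5 libraries alone 8 were higher and none lower.

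Many importers and tRNA synthetases were higher too. SLC6A9, a glycine transporter, stood at 6.10 and 6.81 CPM against 0.966, 1.04 and 1.08 CPM (2.65 ± 0.14, adjusted p = 6.08e-13). SLC1A4, a neutral amino acid transporter, was higher by 1.13 ± 0.08, SLC7A5 by 0.78 ± 0.05 and SLC3A2, the partner chain of SLC7A5, by 0.84 ± 0.07. Of 14 measured transporters, 9 were higher and 2 lower (SLC3A1, -0.77, and SLC36A1, -0.32), with a median of 0.34. Of the 20 cytosolic aminoacyl-tRNA synthetases, which charge tRNAs, 12 were higher and none lower, with a median of 0.25. The largest were SARS1 (0.77 ± 0.05), GARS1 (0.69 ± 0.04) and CARS1 (0.64 ± 0.04), while 8 members, among them HARS1 (-0.08) and KARS1 (0.01), did not pass. In the fit of the 5 libraries alone 6 transporters and 7 synthetases were higher and none lower.

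Sites for ATF4 with its CEBP partners share the core TGATGNAA, where N is any base. It was searched on both strands of the same 250 bases, and the matches in called members of the 4 amino acid lists with a log2 fold change over 0.5 are printed, since they let the spacing and the middle base be compared.
CHAC1 at chr15:40953251-40953280, minus strand, 201 bases from the start: cctggcaggagTGATGCAAcggcaggggag
ASNS at chr7:97872458-97872487, minus strand, 60 bases from the start: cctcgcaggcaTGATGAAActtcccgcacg
ATF3 at chr1:212565205-212565234, plus strand, 183 bases from the start: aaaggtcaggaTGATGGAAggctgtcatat
GARS1 at chr7:30594834-30594863, minus strand, 25 bases from the start: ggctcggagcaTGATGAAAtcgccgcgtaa
AARS1 at chr16:70289675-70289704, plus strand, 179 bases from the start: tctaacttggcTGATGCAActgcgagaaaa
The core was in 3.1% of all promoters and 1.8% of the promoters of genes tested. It was in 9 of the 78 promoters (11.5%) of the genes more than 2-fold higher, in 3.1% of those of all called higher genes and in 2.0% of those of all called lower genes. These shares describe letters and do not show that the factor was bound.

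Genes of the endoplasmic reticulum's own folding response did not follow ATF4. HSPA5, its main chaperone, stood at 442 and 437 CPM with Banhasasim and at 472, 449 and 462 CPM with Bojungikgi (-0.07 ± 0.05, adjusted p = 0.358). Of 19 measured genes, 3 were higher and 3 lower with a median of -0.06. The higher were HERPUD1 (0.40 ± 0.06), ERN1 (0.40 ± 0.06) and XBP1 (0.32 ± 0.07), a degradation factor, a stress sensor and the factor that sensor splices. The lower were the chaperones DNAJC3 (-0.25), HSP90B1 (-0.16) and PDIA4 (-0.12), and none of the 6 was called in the fit of the 5 libraries alone. Of 16 cytosolic heat shock genes, 4 were lower and none higher (median -0.11). They were led by the co-chaperone CHORDC1 (-0.44 ± 0.06, adjusted p = 4.88e-06), the only 1 of the 4 called in the fit of the 5 libraries alone. CHORDC1 averaged 63.8 CPM with Banhasasim and 86.7 CPM with Bojungikgi, against a vehicle mean of 58.3 CPM. The means of the others (HSPH1, HSPA8 and HSPA4L) were likewise lowest in the vehicle and highest with Bojungikgi. At 20 µg/mL the means of all 4 also lay above the vehicle with both extracts. CHORDC1 averaged 68.4 CPM with Banhasasim and 73.7 CPM with Bojungikgi at that dose, so with Banhasasim it was lower at 500 than at 20 µg/mL.

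**Figure D2:**
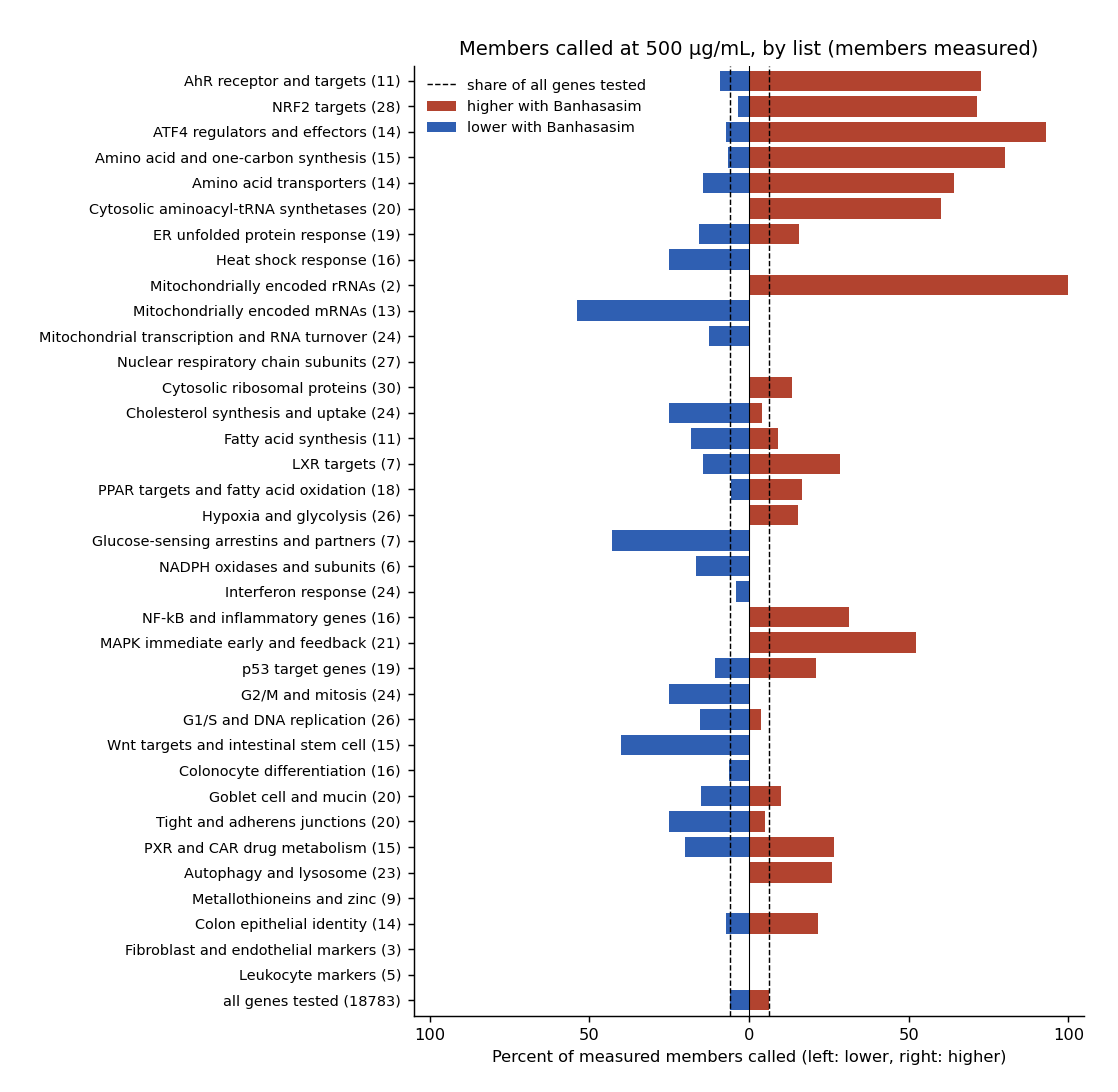
Bars give the percent of each list's measured members (number in brackets) called higher (right) or lower (left) with Banhasasim at 500 µg/mL, and dashed lines the share of all genes tested (6.29% and 5.90%). After the 2 mitochondrial rRNAs, the ATF4, amino acid synthesis, AhR and NRF2 lists reach furthest to the right, and the mitochondrial mRNA and Wnt lists are among those furthest to the left.

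NRF2 targets were higher more often than lower, by modest amounts. SLC7A11, the cystine importer that both NRF2 and ATF4 induce, averaged 400 ± 31.4 against 224 ± 23.3 CPM (0.84 ± 0.08, adjusted p = 1.46e-08). AKR1C2 (0.78 ± 0.09) and AKR1C1 (0.68 ± 0.09), reductases of carbonyls and steroids, were higher as well, though they are near-identical copies between which reads can be split wrongly. HMOX1, which degrades heme, averaged 17.1 ± 1.52 against 11.8 ± 0.701 CPM (0.53 ± 0.07, adjusted p = 5.09e-06). Of 28 measured members, 20 were higher and 1 lower (UGDH, -0.18), with a median of 0.29. Glutathione synthesis and thioredoxin genes lay below that median: GCLM was higher by 0.26 and TXNRD1 by 0.23. The higher count was 13 without Banhasasim replicate 2 and 3 in the fit of the 5 libraries alone, where HMOX1 was not called.

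The mitochondrial rRNAs took 12.862% and 9.408% of all counts in the Banhasasim libraries and between 1.087% and 1.383% in the Bojungikgi libraries, while mitochondrial mRNAs took 3.993% and 2.556% against 6.364% to 7.253%. MT-RNR1, the small subunit rRNA, stood at 31800 and 23500 CPM against 1630, 1600 and 1450 CPM, with a vehicle mean of 1270 CPM (log2 fold change 4.15 ± 0.14, adjusted p = 9.35e-15). MT-RNR2, the large subunit rRNA, stood at 111000 and 75300 CPM against 11200, 12000 and 9440 CPM (3.10 ± 0.14, adjusted p = 6.08e-13). Both rRNAs were several-fold above every Bojungikgi library in both Banhasasim libraries, and these differed between themselves by more than the Bojungikgi libraries did. The labels describe mRNA libraries without naming the step that keeps rRNA out, so these levels are of rRNA that entered the libraries.

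Most mitochondrial mRNAs went the other way. MT-ND4, a subunit of complex I, stood at 3890 and 2190 CPM against 9130, 8120 and 8650 CPM (-1.50 ± 0.19, adjusted p = 3.06e-05). MT-CO1, which holds the active site of cytochrome oxidase, stood at 8500 and 5870 CPM against 16700, 13800 and 14600 CPM (-1.07 ± 0.14, adjusted p = 2.33e-05). In both genes replicate 3 of Banhasasim was the lowest library, and no library of the extracts overlapped. MT-ND4L (-1.34), MT-CO2 (-1.16), MT-CO3 (-1.11), MT-ND3 (-1.08) and MT-ATP6 (-0.96) were lower as well, which makes 7 of 13 lower and none higher, with a median of -0.96. The 6 that did not pass were MT-ND1, MT-ND2, MT-ND5, MT-ATP8 and MT-CYB, at -0.38 to -0.71, and MT-ND6, the only mRNA of the light strand, at 0.41 ± 0.32 (adjusted p = 0.441). MT-ND4L and MT-ND4, and MT-ATP8 and MT-ATP6, overlap on the genome, so the split of reads within these pairs is uncertain. In the fit of the 5 libraries alone only MT-ND4 and MT-ND4L remained called, MT-ND3 lost its call without any one of 4 libraries (each except Bojungikgi replicate 2), and MT-ATP6 lost it without Banhasasim replicate 3 or Bojungikgi replicate 1. MTCO1P12, a nuclear copy of a mitochondrial stretch on chromosome 1 (631074 to 632616), was lower by 1.23 ± 0.17 on the log2 scale, and reads may be shared between it and MT-CO1.

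**Figure D3:**
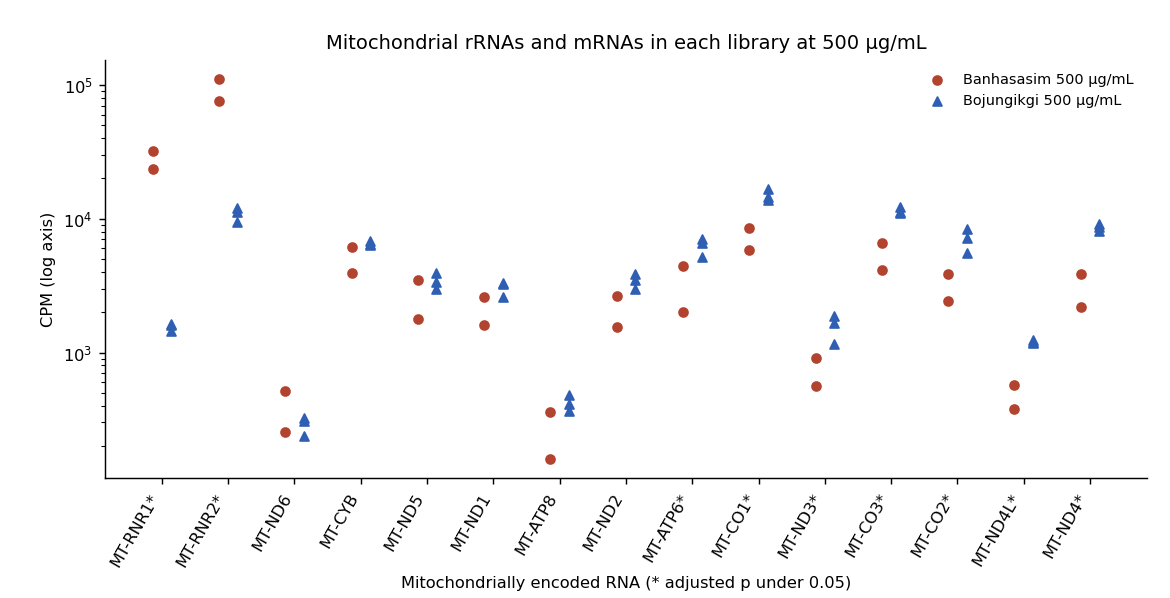
Points give the level of each mitochondrially encoded RNA in CPM (log axis) in the 2 Banhasasim and 3 Bojungikgi libraries at 500 µg/mL, and a star marks an adjusted p under 0.05. Both rRNAs lie higher and 7 of the 13 mRNAs lower with Banhasasim, MT-ND4 at 3890 and 2190 CPM against 8120 to 9130 CPM.

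Few nuclear genes of the mitochondrion were called. None of 27 nuclear subunits of the respiratory chain was called by edgeR, with a median of 0.20. NDUFB10 came nearest (0.28 ± 0.11, adjusted p = 0.0997), with Bojungikgi replicate 2 at 38 CPM below the other Bojungikgi libraries at 55.7 and 53.9 CPM. Without that library the median was 0.06 with none called, and without Bojungikgi replicate 1 or 3 it was 0.26 and 0.27 with 2 higher each time. Of 24 genes for mitochondrial transcription and RNA turnover, 3 were lower: TWNK, the DNA helicase (-0.21), POLG, the DNA polymerase (-0.18), and FASTKD5, which processes mitochondrial RNAs (-0.17). These are 12.5% of the list, close to the 12.2% called among all genes tested. None of the 3 was called without Banhasasim replicate 2 or in the fit of the 5 libraries alone. Of 30 cytosolic ribosomal protein genes, 4 were higher (RPL4, RPL5, RPL7A and RPL8) and the median was 0.29. The called share of 13.3% was again close to that of all genes tested. The number higher rested on single libraries: it was 0 without Banhasasim replicate 2 or without Bojungikgi replicate 2 (median 0.14), whose low ribosomal protein share is given above, 8 without Bojungikgi replicate 1 and 15 without Bojungikgi replicate 3 (median 0.38).

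TXNIP and its close relative ARRDC4 are alpha-arrestins that MLXIP (MondoA) induces when glucose phosphates build up. TXNIP stood at 21.4 and 21.2 CPM with Banhasasim and at 55.2, 50.4 and 55.4 CPM with Bojungikgi, near its vehicle mean of 60.2 CPM (-1.33 ± 0.06, adjusted p = 2.17e-15). ARRDC4 stood at 4.75 and 5.46 CPM against 12, 9.48 and 10.2 CPM (-1.05 ± 0.10, adjusted p = 2.62e-08). MLXIP was lower by 0.34 ± 0.07 on the log2 scale (adjusted p = 0.00271), while ARRDC3, a further arrestin, was at 0.17 ± 0.08 and did not pass. Of the 7 measured genes of this list, 3 were lower and none higher. Among 26 hypoxia and glycolysis genes 4 were higher, VEGFA (0.78 ± 0.04), ENO2 (0.38 ± 0.05), SLC2A1 (0.27 ± 0.04) and PFKP (0.18 ± 0.05), and none lower. That is 15.4% of the list, against 12.2% of all genes tested. VEGFA, the angiogenic factor that ATF4 also induces, kept its call in all alternatives and was the only 1 of the 26 called in the fit of the 5 libraries alone, while PFKP lost its call in 6 of the 13. Without Bojungikgi replicate 1 the list had 3 higher and 2 lower. CA9, the common marker of hypoxia, was at 0.10 and did not pass.

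Genes of the intestinal stem cell and of Wnt signalling were lower or did not pass. EPHB3, a receptor of the crypt base, stood at 14.2 and 13.6 CPM against 22.6, 23.1 and 22.3 CPM (-0.70 ± 0.06, adjusted p = 5.19e-09). LGR5, the stem cell receptor for R-spondins, averaged 35.5 ± 1.70 against 46.9 ± 2.7 CPM (-0.40 ± 0.06, adjusted p = 0.000131), although its vehicle mean was 30.7 CPM, below both. MYB was lower by 0.42, PROM1 by 0.33, CD44 by 0.32 and RNF43 by 0.29 on the log2 scale. That makes 6 of 15 lower and none higher, with a median of -0.29. AXIN2 (0.10) and NOTUM (0.19), feedback inhibitors of the pathway, did not pass. DKK1, a secreted Wnt inhibitor, averaged 9.18 ± 0.226 against 16.6 ± 2.68 CPM (-0.86 ± 0.10, adjusted p = 1.34e-06). Without Banhasasim replicate 2 the lower count was 3 with a median of -0.14, and in the fit of the 5 libraries alone only EPHB3 was called and DKK1 was not.

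NOX1, an oxidase that makes superoxide in the colon, stood at 8.77 and 9.69 CPM against 14.4, 14.4 and 15.7 CPM (-0.69 ± 0.09, adjusted p = 4.15e-06), with a vehicle mean of 19.0 CPM. Its partners NOXO1 (0.14) and CYBA (0.12) did not pass. ABCG1, a cholesterol exporter under LXR, was higher (0.81 ± 0.09, adjusted p = 2.77e-07). ABCA1, another LXR target, was lower (-0.41 ± 0.10, adjusted p = 0.0115), a call that ended without Banhasasim replicate 2 or Bojungikgi replicate 2. NOX1 and ABCG1 kept their calls in all alternatives.

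Further groups held smaller differences that rested on the full fit. Of 21 immediate early and feedback genes of MAPK signalling, 11 were higher and none lower (median 0.20), with IER3 at 0.67 ± 0.10 and EGR1 at 0.38 ± 0.07. Of 16 NF-kB and inflammatory genes 5 were higher, among them the cytokine IL32 (1.11, at 0.473 against 0.216 CPM) and the adhesion molecule ICAM1 (0.56 ± 0.10), and of 23 autophagy and lysosome genes 6, led in fold by CTSL (0.52 ± 0.12) and including SQSTM1 (0.25 ± 0.05). The counts without Banhasasim replicate 2 were 5, 2 and 2, and none of these genes was called in the fit of the 5 libraries alone. Of 24 cholesterol genes 6 were lower, among them HMGCS1 (-0.24 ± 0.05), and TM7SF2 was higher. Of 24 G2/M genes 6 were lower, among them the proliferation marker MKI67 (-0.56) and the kinesin KIF23 (-0.24 ± 0.05), and of 26 G1/S genes 4 were lower and 1 higher, with RRM2 at -0.21 ± 0.04. Without Banhasasim replicate 2 no cholesterol or G2/M gene and 1 G1/S gene was called.

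Several lists held calls in both directions. Among 19 p53 targets 4 were higher and 2 lower, with BBC3, which triggers cell death, at 0.66 ± 0.13 and CDKN1A, the cell cycle inhibitor, at 0.39 ± 0.08. Among 20 goblet cell and mucin genes 2 were higher and 3 lower, with ATOH1, the secretory lineage factor, at -0.69 ± 0.13 and FCGBP at -0.70 ± 0.15. Both of these are lower members, while over the list log2 fold changes ran from -0.70 to 0.69 with a median of -0.12. ATOH1 was not among the calls when a mean of at least 5 CPM was required. Among 20 junction genes 1 was higher (CLDN7, 0.26) and 5 lower, with CLDN2, a pore-forming claudin, at -0.35 ± 0.06. The PXR and CAR list had 4 higher and 3 lower of 15, the fatty acid synthesis list 1 and 2 of 11 and the LXR list 2 and 1 of 7. Of 16 colonocyte genes 1 was lower (SLC5A1, -0.41) and none higher, and of 14 colon identity genes 3 were higher (CDX1, CDX2 and LGALS4) and 1 lower (HNF4A). None of 9 metallothionein and zinc genes, 5 leukocyte markers and 3 markers of fibroblasts or endothelium was called by edgeR. Without Banhasasim replicate 2 no goblet cell or colon identity gene was called, and 1 junction gene, 1 PXR and CAR gene and 2 p53 targets were.

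The lower doses are separate libraries, and they show which differences were present before the highest dose. At 20 µg/mL only 4 genes were called higher (0.0213%) and none lower (0%). They were CYP1A1, CYP1B1, ALDH1A3 and TIPARP, all members of the AhR list. That list was chosen with earlier results of these data known, which favoured such a match. By edgeR, 213 genes were higher and 204 lower at an unadjusted p under 0.05. Together these are a share below 0.05 of the 18783 genes tested, and 0.05 is the share expected where nothing differs. DESeq2 called 9 higher and 3 lower. CYP1B1 averaged 100 ± 2.43 (SD, n = 2) with Banhasasim against 58.7 ± 1.15 (n = 3) CPM with Bojungikgi, a log2 fold change of 0.77 ± 0.05 (adjusted p = 2.76e-10). CYP1A1 stood at 1.57 and 1.20 CPM against 0.362, 0.502 and 0.357 CPM, a log2 fold change of 1.71 ± 0.25 (adjusted p = 0.00169). For both genes no library of the extracts overlapped, and the Bojungikgi libraries of CYP1A1 lay among the vehicle libraries (0.614, 0.352 and 0.356 CPM).

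At 100 µg/mL 23 genes were higher (0.122%) and 1 lower (0.00532%), TXNIP at -0.63 ± 0.05 (36.5 ± 2.43 against 56.5 ± 1.84 CPM, adjusted p = 2.93e-08). CYP1A1 stood at 15.5 and 14.5 CPM against 0.938, 0.839 and 0.606 CPM (4.24 ± 0.16), and CYP1B1 (1.73 ± 0.05), ALDH1A3 (1.28 ± 0.06), TIPARP (0.78 ± 0.06) and ALDH3A1 (0.44 ± 0.08) made 5 AhR list members. Among higher genes outside that list the smallest p values were those of ADGRF1, an adhesion receptor (0.59 ± 0.06), PIM1, a survival kinase (0.62 ± 0.07), and VIPR1, the receptor of vasoactive intestinal peptide (0.38 ± 0.04). MT-RNR1 was already higher, at 2990 and 3150 CPM against 1340, 1440 and 1310 CPM (1.17 ± 0.13, adjusted p = 3.22e-05), and MT-RNR2 did not pass (0.61 ± 0.13, adjusted p = 0.0974). ASNS (0.25 ± 0.05, adjusted p = 0.0116) and SLC7A11 (0.38 ± 0.08, adjusted p = 0.0314) were the only members of the 4 amino acid lists, while CHAC1 was at 0.38 ± 0.10 and did not pass. CYP1B1-AS1 was called as well, but whether the counting used strand is not stated, and its reads cannot be told apart from those of CYP1B1. Without Banhasasim 100 µg/mL replicate 3 the number called at this dose was 15.

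**Figure D4:**
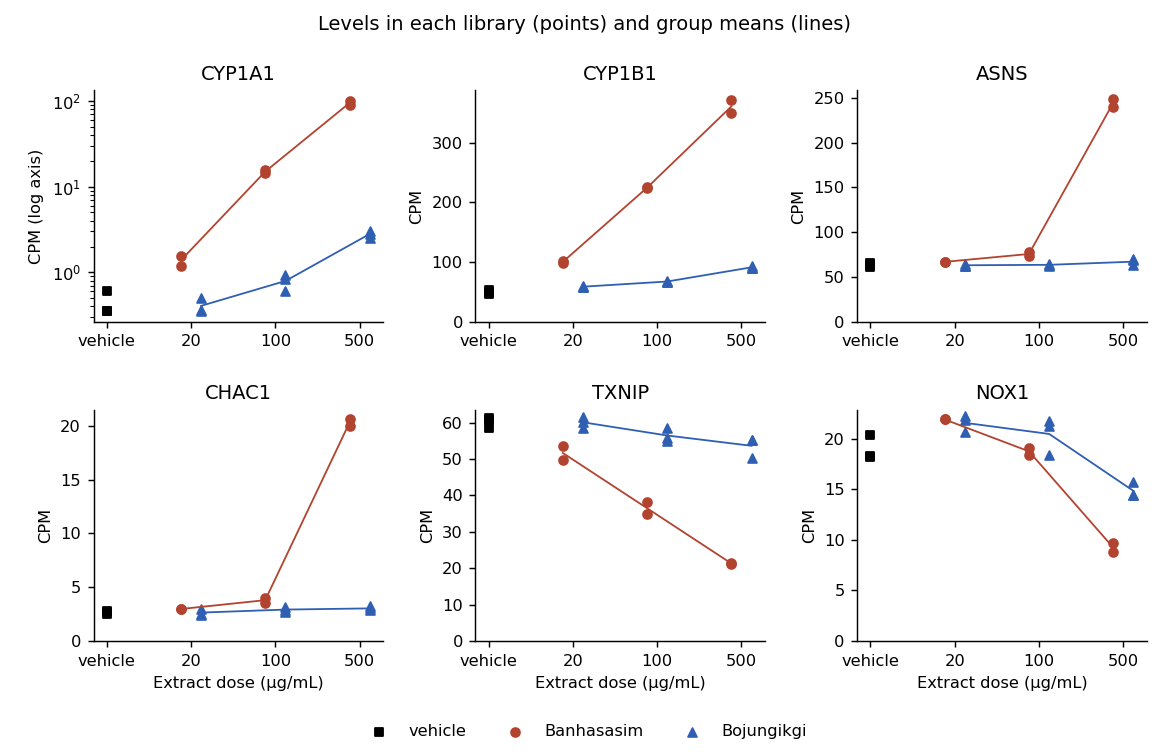
Points give the level of 6 genes in CPM in each vehicle, Banhasasim and Bojungikgi library by dose (µg/mL), lines join group means, and the CYP1A1 axis is logarithmic. CYP1A1 and CYP1B1 differ between the extracts at every dose, ASNS and CHAC1 mainly at 500 µg/mL, and the TXNIP means at 20 and 500 µg/mL are 60.1 and 53.7 CPM with Bojungikgi and 51.7 and 21.3 CPM with Banhasasim.

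All 24 genes called at 100 µg/mL and all 4 called at 20 µg/mL were also called at 500 µg/mL in the same direction, out of the 2290 called there. Of those 2290, 74.7% had the same sign at 100 µg/mL and 60.7% at 20 µg/mL, against 57.0% and 52.6% of all genes tested. Whether the extracts differed more at 500 than at 20 µg/mL was tested as the difference between their changes over that range. By this interaction 246 genes (1.31%) had a more positive change with Banhasasim and 140 (0.745%) a more negative one. It was called for all 12 of the genes named for the largest positive fold change, from ALDH1A3 (0.94 ± 0.09) to MT-RNR1 (4.43 ± 0.20), and for 9 of the 12 named for the largest negative one. MT-CO2, MT-ND3 and MT-ATP6 did not pass (adjusted p = 0.115, 0.273 and 0.269). Both sets of 12 were picked by the 500 µg/mL contrast, which is part of the interaction, so their choice favoured a large interaction. Among the lists it was called as more positive for 12 of 14 ATF4 genes, 10 of 15 amino acid synthesis genes, 9 of 20 tRNA synthetases, 9 of 28 NRF2 targets and 6 of 11 AhR genes, and as more negative for 5 of 15 Wnt and stem cell genes and 4 of 13 mitochondrial mRNAs. The interaction count fell to 169 without Banhasasim 500 µg/mL replicate 2, and to 199 and 186 without Banhasasim 20 µg/mL replicates 2 and 3.

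**Figure D5:**
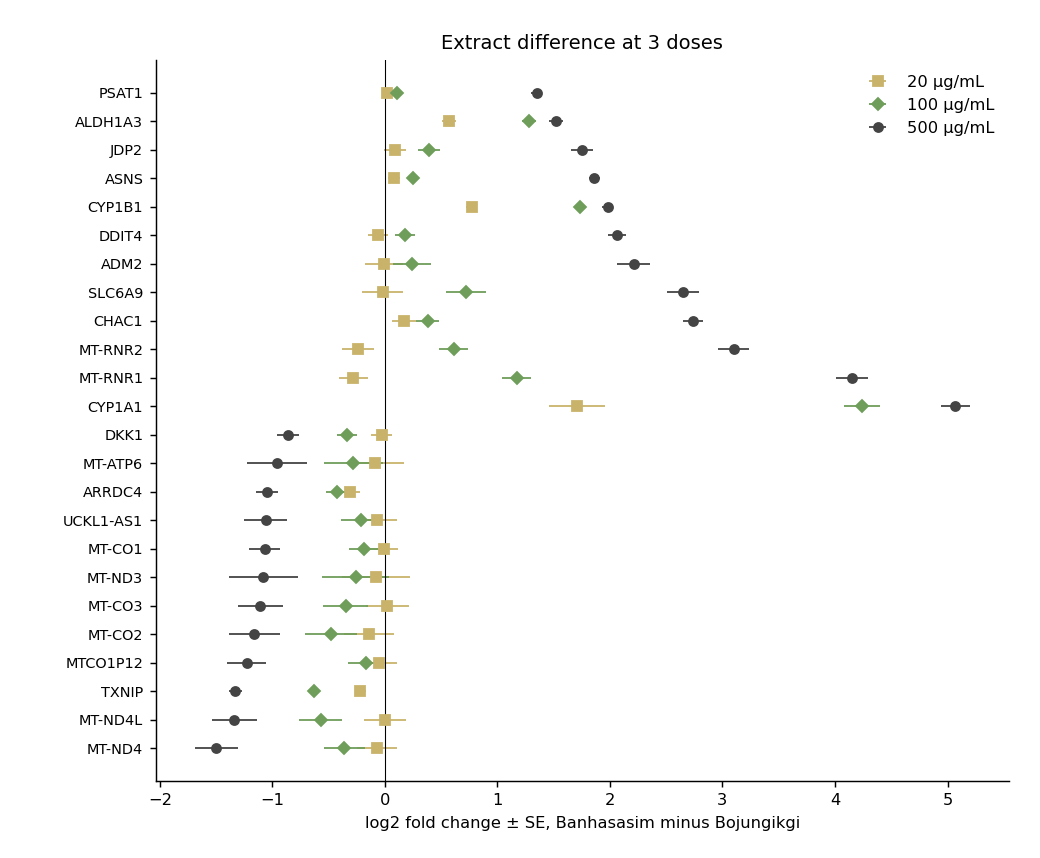
Log2 fold changes (Banhasasim minus Bojungikgi) with SE of the 24 genes named by size at 500 µg/mL, shown at 20, 100 and 500 µg/mL from separate libraries. CYP1A1, CYP1B1 and ALDH1A3 lie well above 0 at all 3 doses, while DDIT4 and ADM2 are near 0 at 20 µg/mL (-0.06 and -0.01) and reach 2.06 and 2.21 at 500 µg/mL.

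The code in each sample's description begins with one number for Banhasasim and Yijung and with another for Bojungikgi and Sayeok, so at any single dose the extract and the code series cannot be told apart. Vehicle codes begin with a letter, so the vehicle is set apart from both extracts by code series as well. What is constant between the code series cancels in the interaction. The Yijung library at 500 µg/mL, of the same code series as Banhasasim, had 0.918 CPM of CYP1A1, 70.4 CPM of ASNS, 53.5 CPM of TXNIP and 1390 CPM of MT-RNR1, and 1.169% of its counts lay on mitochondrial rRNAs. The Sayeok means at that dose were 1.24, 78.6, 52.0 and 1490 CPM. The Banhasasim libraries lay beyond all of these in the direction of their difference from Bojungikgi. These genes were named by size in the 500 µg/mL contrast, which favoured that order, and Yijung had 1 library. Whether the code series plays a part was not tested. For some other called genes Sayeok lay nearer to Banhasasim. AKR1C2 averaged 22.3 CPM with Sayeok at 500 µg/mL, 24.3 CPM with Banhasasim and 14.1 CPM with Bojungikgi, and ABCG1 averaged 8.27, 10.4 and 5.94 CPM.

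On GRCh38 with GENCODE release 29, CYP1A1 (ENSG00000140465) spans chr15:74719542-74725610 and CYP1B1 (ENSG00000138061) chr2:38066973-38109902, both on the minus strand. ASNS (ENSG00000070669) spans chr7:97852118-97872542 and TXNIP (ENSG00000265972) chr1:145992435-145996600, also on the minus strand. CHAC1 (ENSG00000128965) spans chr15:40952962-40956519 and DDIT4 (ENSG00000168209) chr10:72273920-72276036, on the plus strand. The last of the 24 genes named by size not described above are ADM2, which encodes the peptide adrenomedullin 2 (10.1 ± 0.541 against 2.20 ± 0.194 CPM, log2 fold change 2.21 ± 0.15, adjusted p = 4.83e-11), and UCKL1-AS1, an antisense RNA (2.50 ± 0.816 against 5.24 ± 0.826 CPM, -1.06 ± 0.19, adjusted p = 0.000632). The call of UCKL1-AS1 ended without Banhasasim replicate 2 and in the fit of the 5 libraries alone, and its reads cannot be told apart from those of UCKL1 without the strand setting.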

How the data were processed

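RNA of 30 HT29 libraries was sequenced as 100 bp read pairs, per the labels' protocols. The authors deposited expected counts per gene, estimated with RSEM per the submitters' processing notes. Per the submitters' processing notes FastQC 0.11.9, Trim Galore 0.6.5, STAR 2.7.3a, RSEM 1.3.3 and the hg38 build were used. Which annotation release and strand setting they used is not stated in the labels. Of 270 columns, 240 matched no sample and were not used. Expected counts were rounded (25.48% of the values above 0 were not whole).

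Genes passing filterByExpr (minimum count 10) were fitted with edgeR 4.0.16 (R 4.3.3), TMM scaling, robust quasi-likelihood dispersions and 1 mean for each of 13 groups. Tests were two-sided, with Benjamini-Hochberg adjustment over 18783 genes, and SE is the absolute log2 fold change over the square root of F. The script was tested on simulated data in which all groups had the same spread for a gene. Of 50 genes changed 2-fold it called 66% in the right direction, and of 50 changed 4-fold 82%. A wider spread at 500 µg/mL was not simulated. Symbols were found for 41706 of 60675 genes (99.28% of counts).

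Members and the 36 gene lists were chosen with earlier results of these data known. Genes were named as the 12 largest changes in each direction (called, at least 5 CPM in 1 group, no overlap) and up to 4 members per list with the smallest p. Other members named were chosen after their values were seen. Alternatives changed the scaling (relative log expression), the filter, the libraries in the fit, the replicate block, the mitochondrial genes and the tool (DESeq2 1.42.0). Some results are not reported here.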

Additional observations from a re-analysis of the deposited data

Results flagged for a closer look

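The change from 20 to 500 µg/mL differed between the extracts, by edgeR's interaction test, for 386 genes. The genes given below were named by size at 500 µg/mL, and that contrast is part of the interaction, so large values were favoured. The difference (Banhasasim minus Bojungikgi, log2 scale) was 3.37 for CYP1A1, 1.21 for CYP1B1 and 0.94 for ALDH1A3, the oxidising enzymes of the AhR list. Among genes of the ATF4 response and amino acid supply it was 2.58 for CHAC1, 2.67 for SLC6A9, 2.22 for ADM2, 2.11 for DDIT4, 1.78 for ASNS, 1.67 for JDP2 and 1.32 for PSAT1.

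The mitochondrial RNAs differed in opposite directions. The value was 4.43 for MT-RNR1 and 3.34 for MT-RNR2, and -1.43 for MT-ND4, -1.34 for MT-ND4L, -1.12 for MT-CO3 and -1.06 for MT-CO1. The nuclear pseudogene MTCO1P12, with which reads of MT-CO1 may be shared, had -1.18.

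Of the remaining genes named by size, TXNIP had -1.12 and ARRDC4 -0.74, DKK1 had -0.82 and the antisense RNA UCKL1-AS1 -0.99.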

How the results depend on the processing

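Counts of called genes depended on the fit. At 500 µg/mL the count was 132 (108 higher, 24 lower) with only the 5 libraries compared, and between 540 and 2506 when each library was left out in turn (368 to 1320 higher, 172 to 1278 lower). Higher genes made up 51.6% of the calls in the full fit, 81.8% with only the 5 libraries, 68.1% without Banhasasim replicate 2 and 43.4% without Banhasasim replicate 3. At 100 µg/mL it was 129 with no low-count filter and 15 to 22 without 1 library. At 20 µg/mL it was 95 with no filter, 26 with only the libraries compared and 12 with DESeq2. For the interaction it was 963 with no filter, 154 with only the libraries compared and 169 to 535 without 1 library. The cause of these differences was not tested. With a replicate block the counts were 2695, 24, 5 and 447 (500, 100, 20 µg/mL and interaction). Deviations from the group means of same-numbered libraries of the extracts gave r = -0.295 and -0.162 over genes (2 pairs). With 2 Banhasasim libraries these deviations mirror each other, so the values cannot tell whether same-numbered libraries share a batch. Of 1546 values of the called named genes under the alternatives, 1344 stayed past the threshold, 202 did not and 0 changed sign. Nearly all calls (99.3%) had no overlap between the libraries of the extracts, so a change of sign was hardly possible and the 0 says little. Where 1 library was left out of Banhasasim, the lone one was assumed to vary like the other groups.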
